A study of Homo sapiens with 4 samples.

Results

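The 2 GALNT3 KO clones of A2780s, a human ovarian adenocarcinoma cell line, were compared with the mock-transfected control clone (Ctrl) by gene expression arrays. These were the 2 arrays, of 4 in the series, whose titles name the clones C-GAL3 KO-1 and C-GAL3 KO-2 (here clone 1 and clone 2), and the values were read from the probes that were not control spots. In each clone the GALNT3 gene was disrupted with CRISPR-Cas9, and the cells were cultured adherent in RPMI medium with fetal calf serum, as was the Ctrl. The other 2 arrays, labelled GALNT3/T6 KO, hold clones in which an shRNA against GALNT6 was added to GALNT3 knockout cells, and the same Ctrl was the other channel there. On every array the RNA of the KO clone was labelled with Cy5 and that of the Ctrl with Cy3, without a dye swap. Each clone is a single line grown from edited cells, and the labels name 1 control clone, so a trait of that control clone and an effect of the knockout cannot be told apart. The limma p-values and standard errors below come from 1 fit over all 4 arrays. They pool the spread between the 2 clones of each KO group, so that of the GALNT3/T6 KO clones enters too. The spread of the Ctrl itself is left out. The arrays read bulk RNA, in which fewer cells carrying a transcript and less of it per cell cannot be told apart.

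Polypeptide N-acetylgalactosaminyltransferases (GalNAc-Ts) sit in the Golgi and add the first sugar, GalNAc, to serines and threonines of proteins. Other enzymes then extend that sugar into the O-glycans that cover mucins and many cell surface proteins. The GalNAc-Ts form a family with overlapping substrates, in which GALNT3 and GALNT6 are close relatives, and changes in their expression are a known trait of epithelial cancers. The question put to these arrays was which transcripts change when GALNT3 is lost in A2780s cells.

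Between 86.9% and 93.8% of the spots were well above background in a channel of the 4 arrays, and none was saturated. Of the 27214 genes fitted, 25634 were measured on both GALNT3 KO arrays. Values are log2 ratios of the KO clone over Ctrl, given for clone 1 and then clone 2. A gene is called, and said to have risen or fallen, where the p from limma, adjusted by Benjamini-Hochberg over all fitted genes, was at most 0.05, the mean change was at least 1.5-fold and both clones moved the same way. Of the marker lists of other cells, 0 of 13 leukocyte, 0 of 7 endothelial and 0 of 7 erythroid genes well above background in Ctrl were called, and the summed leukocyte signal was 18400 and 16700 in Ctrl against 23200 and 21100 in the clones. The epithelial list had 0 of 11 called, and its summed signal was 12100 and 10600 in Ctrl against 14500 and 12400 in the clones. The fibroblast list had COL1A2 higher and LUM lower, with a summed signal of 98700 and 106000 in Ctrl against 88100 and 86300. PECAM1 and TIE1 were not well above background in any channel of these arrays.

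The GalNAc-T transcripts were read first, and the start of each probe is shown because it fixes which transcript the values below belong to. Positions are those of the whole probe in hg19, the lower case run is its first 30 bases from 5′ to 3′, and no base is in capitals since no part of it was singled out.
GALNT3, chr2:166604416-166604475, minus strand: atttcaaatgcagaatacttgactcattta
GALNT6, chr12:51747906-51747965, minus strand: cattaggacatatatttagcctagcgtttt
GALNT7, chr4:174244878-174244937, plus strand: tactgtaggctgctttggaaataattccca
GALNT4, chr12:89913504-89913563, minus strand: tccctataactcaaaataacttgtttgtaa
GALNT1, chr18:33291320-33291379, plus strand: agtcgcatcgctaatgatatttgccaagtt

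In the GALNT3 KO clones 3 other GalNAc-Ts rose, while GALNT3 itself could not be read. With log2 signals from 6.19 to 6.54, the GALNT3 probe was too dim to stand well above background in Ctrl as in the clones, so it gives no check of the knockout. GALNT7, which prefers peptides that already carry GalNAc, stood at 1.67 and 1.14, a 2.64-fold mean rise (adjusted p = 0.0232, limma). GALNT4, another such follow-up enzyme, stood at 0.94 and 1.00 (adjusted p = 0.014, limma), and its dimmer probe at 1.04 and 0.97. GALNT1, a broadly expressed initiating enzyme, stood at 0.56 and 0.67 (adjusted p = 0.0336, limma). In each of the 3 genes both clones lay above Ctrl. GALNT6 lay below Ctrl on both clones, at -0.47 and -0.38 (adjusted p = 0.0447, limma), but its 1.34-fold change was under the fold minimum and it was not called. The GALNT6 probe was dim, with log2 signals of 7.89 and 8.09 in Ctrl and 7.42 and 7.71 in the clones. The lowest signals well above background on these arrays were 6.83 and 6.71 in Ctrl and 6.99 and 6.69 in the clones. GALNT2, at 0.30 and 0.34, and GALNT14, at 0.30 and 0.07, were not called. Of the 15 GalNAc-Ts measured, 3 were called higher (20% against 2.48% of all genes measured) and 0 lower, and the median of the 15 was 0.09 against 0.02 over all genes.

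The enzymes of later O-glycosylation steps were mostly not called. Of 21 listed for O-glycan cores and their extension, 0 rose and 4 fell (19% against 4.71% of all genes). The list as a whole lay near Ctrl, with a median of -0.06 and 9 of 21 above 0. The largest were B4GALT6, a galactosyltransferase also used for lactosylceramide, at -1.13 and -1.02, and GCNT2, which branches the I antigen, at -1.01 and -0.77. B3GNT9 and B3GNT5, both N-acetylglucosaminyltransferases, were the others. C1GALT1, which makes the core 1 disaccharide, stood at -0.06 and 0.23 and was not called. Nucleotide sugar synthesis had 6 of 39 genes lower (15.4%) and 0 higher. PGM3, of the UDP-GlcNAc route, stood at -1.23 and -1.29, and GMPPB, which makes GDP-mannose, at -1.14 and -1.07. UGP2, GFPT1 and NANP also fell. In sulfated glycans the changes were larger but of both signs. The sulfotransferase gene CHST2 rose, at 2.28 and 2.24. The keratan sulfate sulfotransferase gene CHST6 fell at least 4.9-fold, a bound set by a dim signal in both clones, and HS6ST2, which sulfates heparan chains, fell to -1.88 and -1.72. The mucin transcripts themselves were mostly not called. Of 32, only MUC3A rose (0.73 and 0.86), 3.12% against 2.48% of all genes. MUC1 stood at -0.12 and -0.25 and MUC16 at 0.07 and 0.10, neither called.

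Over all genes, 637 rose and 1207 fell in the GALNT3 KO clones, so 34.5% of the 1844 called genes were higher. With median centring in place of loess that share was 22.9%, from 477 higher and 1603 lower. The median change of the called genes was 0.77 among those that rose and -0.82 among those that fell, and 173 of the higher and 352 of the lower ones were at least 2-fold from Ctrl. Over genes, which are not independent replicates, their log2 ratios correlated at r = 0.84 (Spearman 0.795, n = 25602), and both ratios hold the same Ctrl and dye orientation, which by itself makes them alike. At least 2-fold on both clones in the same direction were 414 genes, and 0 were so in opposite directions. The departure from Ctrl was larger on clone 2 in 1102 called genes and on clone 1 in 742, with a median gap of 0.16. With either clone left out limma called 0 genes (lowest adjusted p = 0.281 without clone 1 and 0.335 without clone 2), so each call below rests on both.

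**Figure D1:**
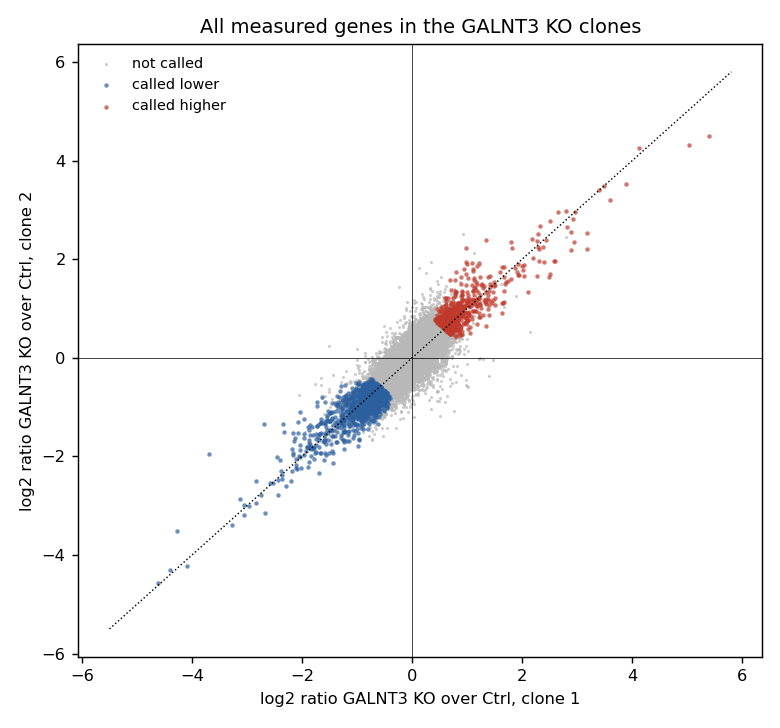
Log2 ratio of GALNT3 KO over Ctrl in clone 1 (horizontal axis) and clone 2 (vertical axis), 1 point per measured gene, with called genes in colour and the dotted line marking equal values. The 637 higher and 1207 lower genes lie along the line, and RBMS1, at -3.69 and -1.95, is the called gene farthest from it.

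Some genes differed widely between the clones, and ORC3, RLF, SPRED2 and PDZRN4 did so by more than they differed from Ctrl on average. ORC3, an origin recognition subunit, stood at 1.39 on clone 1 and -0.36 on clone 2. RLF, a zinc finger gene, stood at 0.50 and -1.18, and SPRED2, an inhibitor of RAS signalling, at 1.47 and -0.04. None of the 3 was called. PDZRN4 lay above Ctrl on both clones, at 2.14 and 0.53, and was not called either. BST2, or tetherin, which holds budding viruses at the cell surface, stood at -2.06 and -0.76 (adjusted p = 0.0598, limma). Among called genes the gap was widest for the RNA-binding protein gene RBMS1, at -3.69 and -1.95.

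After the 5 largest changes in each direction, the next genes that rose formed no single family. They held adhesion molecules, cell surface receptors, small GTPase regulators and a cell cycle inhibitor. PCDH7, a protocadherin, stood at 3.59 and 3.21. THSD7A, a membrane protein with thrombospondin repeats, stood at 3.39 and 3.40, and FOLH1, the folate hydrolase also known as prostate-specific membrane antigen, at 2.96 on both clones. FOLH1, the lowest of the 3, was 7.78-fold above Ctrl. GPR84, a receptor for medium-chain fatty acids, stood at 2.79 and 2.98, and RGS18, which shortens G protein signals, at 2.93 and 2.81. CDH2, or N-cadherin, stood at 2.89 and 2.18, a 5.8-fold rise, and S100A10, the partner of annexin A2, at 2.33 and 2.67. CDKN2A, which encodes p16INK4a and ARF, stood at 2.43 and 2.39, so its clones differed little. ARHGAP6, a GTPase-activating protein, was at least 6.22-fold higher, a bound set by its dim signal in Ctrl. HOXD10, PRTFDC1, ARL6, KANK4, CCDC102B and PLPPR5 complete the set, between 5.27-fold and 7.25-fold higher. Adjusted p ran from 0.00472 to 0.0265 over these 15 genes (limma), with standard errors from 0.08 for FOLH1 to 0.43 for PCDH7.

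The corresponding genes that fell included secreted growth factors, a lactate carrier and transcription factors of the embryo. PTN, the growth factor pleiotrophin, stood at -3.05 and -3.18, an 8.66-fold fall. SLC16A3, or MCT4, which exports lactate from glycolytic cells, stood at -3.05 and -2.99. PREX1, an activator of Rac, stood at -2.67 and -3.15, and CD36, the fatty acid and scavenger receptor, at -2.84 and -2.94. Both clones were thus below Ctrl by over 6-fold in each of these genes. GRB10, an imprinted adaptor that dampens insulin and IGF receptors, stood at -2.75 and -2.78. FZD7, a WNT receptor, stood at -2.52 and -2.54, and PDGFC, a ligand of PDGF receptors, at -2.44 and -2.47. The clones were within 0.03 of each other in these 3 genes. RIMS2 and GRIA2, a vesicle release scaffold and an AMPA receptor subunit, stood at -2.99 and -2.45 on average. TBX1, HOXC12, KLHL14, the antisense transcript LBX1-AS1, RBMS1 and CHST6 complete the 15. LBX1 itself, at -0.25 and 0.05, was not called. Adjusted p ran from 0.00472 to 0.032 (limma).

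Several of these genes have more than 1 probe, and the size of the change depended on which was read. The brightest probe of PCDH7 gave 3.40 on average and the other 3 gave 0.95 to 1.23. For KLHL14 the other probe gave -0.01, for ARHGAP6 0.29, for RIMS2 -0.55, and for GRIA2 -0.13 and -0.46. For FOLH1, which has a near-identical copy on the same chromosome, the probes gave 2.96, 2.32 and 1.49. With the mean of all probes in place of the brightest, all 30 genes were still called, and PCDH7 stood at 1.65 and GRIA2 at -1.01. Over all 695 called genes with more than 1 probe, every probe had the same direction in 478 (68.8%). For other genes named here, another probe lay on the other side of 0, close to it in most cases, for LSS (0.06 and 0.17), BCL2L11 (0.19 and 0.36), FADS2 (0.19), EP400 (0.07), CDK6 (-0.06), DKK3 (0.01 and 0.19), MUC3A (-0.31 and -0.13) and WWTR1 (-0.59 and -0.03). The same was found for B3GNT9, CLCN6, COL1A2, DLL3, EFNA5, FANCD2, IGF1R, L3MBTL1, MT1G, PARP14, PDLIM5, PHLDA1, RB1, RYBP and SEH1L, so the calls of these genes rest on the brightest probe.

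Adhesion genes changed in both directions, and a switch from E-cadherin to N-cadherin could not be read. Of 26 cadherins, CDH2, CDH10 (1.35 and 1.20) and CDH12 (1.11 and 0.95) rose, 11.5% against 2.48% of all genes. The desmosomal cadherins DSC3, at least 2.2-fold lower, and DSG3 (-0.65 and -0.62) fell, 7.69% against 4.71% of all genes. CDH1, or E-cadherin, stood at -0.10 and -0.20 and was not called. Its log2 signal in Ctrl was 7.49, near the lowest Ctrl signals well above background on these arrays (6.83 and 6.71). A large fall could thus not have been seen. Of 27 EMT regulators and mesenchymal genes only CDH2 and TCF4 (0.98 and 0.74) rose (7.41% against 2.48% of all genes). In that list 0 fell, against 4.71% of all genes. VIM, the intermediate filament vimentin, stood at 1.11 and 1.12 (adjusted p = 0.0525, limma), while SNAI2 at -0.28 and -0.50 and ZEB1 at 0.06 and -0.05 were not called. OCLN, the tight junction protein occludin, fell, at -1.87 and -1.47, as did CXADR, a junctional receptor (-0.70 and -0.58).

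In the matrix, LAMB1, a laminin subunit, rose to 2.59 and 1.97. SPP1, or osteopontin, fell to -1.91 and -1.80 and EMILIN2, an elastic fibre glycoprotein, to -1.37 and -1.5. TIMP1, an inhibitor of matrix metalloproteinases, rose to 1.24 and 1.63, while the stromelysins MMP3 (-1.91 and -1.81) and MMP10 (-2.15 and -1.68) fell. Of 59 metalloproteinases and inhibitors these and MMP16 and ADAMTS5, both higher, were all that were called. That made 5.08% higher and 3.39% lower, against 2.48% and 4.71% of all genes. Among 26 integrin subunits only ITGAV was called, higher (0.87 and 0.82), 3.85% against 2.48% of all genes. Of 93 keratins only KRT222 was called, lower, 1.08% against 4.71% of all genes. KRT18 stood at 0.74 and 0.44 and KRT8 at -0.33 and -0.11, neither called.

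Actin genes fell more often than they rose. Of the 124 actin cytoskeleton genes 12 fell (9.68% against 4.71%) and 2 rose, with a median of -0.14. Of those that fell, several encode the contractile apparatus of smooth muscle. CNN1, or calponin, stood at -1.85 and -1.74, TPM1, a tropomyosin, at -1.51 and -1.93, and ACTG2, smooth muscle actin, at -1.53 and -1.28. MYO6, a myosin that moves endocytic vesicles, stood at -1.97 and -1.24. The 2 that rose were PDLIM5, an actin-binding LIM protein (1.34 and 1.09), and WASF3, a driver of actin branching (0.63 and 0.67). With Agilent's own log ratio 6 actin cytoskeleton genes were called lower, where 382 of all genes were, against 1207 in the main fit. Among tubulins, microtubule proteins and kinesins 10 of 113 fell (8.85%) and 1 rose (0.885%), led by KIF26B at -1.69 and -2.33.

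Transcription factors that pattern the embryo changed in blocks along the chromosomes. In the HOXD cluster on chromosome 2, HOXD11 (0.99 and 0.83), HOXD10 (3.18 and 2.54) and HOXD9 (1.08 and 1.12), whose probes are neighbours between 176973811 and 176989088 in hg19, all rose. HOXD13 on one side, at 0.36 and 0.23, and HOXD8 on the other, at 0.01 and -0.02, were not called. In the HOXC cluster on chromosome 12, HOXC12 (-2.97 and -3.0), HOXC11 (-0.74 and -0.68) and the long non-coding RNA HOTAIR between them (-0.69 and -0.81) fell. HOXC13, at -0.38 and -0.42, and HOXC10, at -0.14 and 0.17, were not called. HOXB5 rose (0.66 and 0.77) and HOXB2 fell (-0.83 and -1.04). That made 4 of the 32 HOX genes measured higher (12.5% against 2.48% of all genes) and 3 lower (9.38% against 4.71%).

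Outside the HOX clusters, SOX2, a factor of stem and neural progenitor cells, rose to 2.40 and 1.94. EGR1, an immediate early factor, rose to 2.37 and 2.25 and EGR3 to 1.37 and 1.19. The retinoic acid receptor RARB rose to 1.01 and 1.27. TBX1, at -2.58 and -2.55, and FOXN4, at -1.96 and -1.63, fell, as did MEIS1, a HOX cofactor (-1.61 and -1.68), ZFHX4 (-1.79 and -1.82) and MAF (-1.66 and -1.24). Of 90 other homeobox and paired factors 7 fell (7.78% against 4.71% of all genes) and 1, LHX1, rose (1.11% against 2.48%). WFDC2, the ovarian cancer serum marker HE4, rose to 1.37 and 1.64, and PAX8, a Mullerian lineage factor, stood at 0.42 on both clones and was not called.

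Some neighbouring genes elsewhere were also called in the same direction. On chromosome 3, ARL6, a small GTPase of cilia (2.81 and 2.66), CRYBG3 (2.50 and 1.69) and RIOX2, a histone demethylase (1.16 and 0.95), rose, and their probes lie between 97506839 and 97664674. The CRYBG3 probe ends at 97663769 and the RIOX2 probe starts at 97664160, and whether they read separate transcripts was not tested. GABRR3 and EPHA6 on the flanks, at -0.21 and -0.05 on average, were not called. On chromosome 4, PDGFC, GLRB, a glycine receptor subunit (-0.90 and -0.97), GRIA2 and GASK1B, a Golgi kinase relative (-1.97 and -1.98), fell, between 157682899 and 159045985, but an unnamed probe between PDGFC and GLRB was not called. Also on chromosome 4, HPGDS, a prostaglandin D synthase (2.18 and 2.40), rose beside PDLIM5. THSD7A and VWDE (2.58 and 1.96) rose on chromosome 7, with TMEM106B between them at 0.77 and 0.97 and not called. These stretches were picked out after their values were seen. By nuclear chromosome the called genes were spread, with 1% to 4.37% higher and 3.42% to 6.43% lower, and 0 of 13 mitochondrial genes were called.

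Of 34 imprinted genes, which are expressed from a single parental copy, 6 fell (17.6% against 4.71%) and 1 rose. MEST fell most among them, and COPG2, its neighbour on chromosome 7, stood at -0.66 and -0.78. PEG10, derived from a retrotransposon, stood at -1.69 and -1.81, and SGCE beside it at -0.90 and -0.82, so both genes of that imprinted pair fell. CDKN1C, a CDK inhibitor, stood at -1.72 and -0.98. L3MBTL1 fell and BLCAP rose, both by under 2-fold. The list's median was 0.11, above 0, since its other members lay near or above Ctrl.

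Transcripts of some growth factor ligands, receptors and inhibitors were called. Of ligands, NRG1, which binds ERBB3 and ERBB4, rose to 2.03 and 1.65 and HGF, the ligand of MET, to 1.01 and 1.14. NTF4, a neurotrophin, fell to -1.72 and -1.39. LRIG3 (-1.84 and -2.0) and ERRFI1, a negative regulator of EGF receptors (-1.27 and -1.21), both fell. IGF1R, the IGF receptor, stood at -0.99 and -1.79 with its brightest probe, while its other probes gave -0.06 and 0.11 on average. With STC2 and IGF2BP3 it made 3 lower of 23 genes of the IGF axis (13% against 4.71% of all genes). Of 31 ERK feedback regulators 3 rose (9.68% against 2.48% of all genes) and 0 fell. The list's median was -0.02, with 16 of 31 below 0. Those that rose were the phosphatase DUSP2 (1.24 and 1.27), SPRY4 (1.31 and 1.17) and PHLDA1 (1.06 and 1.04). EGR1, itself an ERK target, is described above.

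Of 67 WNT pathway genes 3 rose (4.48% against 2.48% of all genes) and 5 fell (7.46% against 4.71%). WNT11, a ligand, rose to 2.03 and 1.89 and RSPO2, which strengthens WNT signals, was at least 1.99-fold higher. DKK1, an inhibitor, rose (1.02 and 1.11) while DKK3 fell (-1.29 and -1.33). FZD5 and FZD9 fell along with FZD7, by 0.94 and 0.84 on the log2 scale. BMP2 was at least 3.11-fold lower and ID4, a BMP target, fell to -1.26 and -1.5, while ID2 rose to 0.88 and 1.05. JAG1, a Notch ligand, was at least 1.48-fold lower, and DLL3 and HEYL of the same pathway fell. CCN2, a YAP target, rose to 1.26 and 1.48 and WWTR1, or TAZ, to 0.71 and 0.76.

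Genes of cell survival and the G1 switch were called in both directions. BCL2L11, or BIM, which starts apoptosis, fell to -2.09 and -2.25, and HSPB1, the small heat shock protein HSP27, to -2.04 and -2.02. BIRC5, or survivin, fell to -1.0 and -0.94. FAS, the death receptor, rose to 0.82 and 0.79. With CDKN2A, CDK6, the D cyclin partner it binds, rose to 2.11 and 1.34. CDKN2B, next to CDKN2A on chromosome 9, stood at 0.54 and 0.34 and was not called. E2F7, E2F8, RB1, RBL2 and CCNE2 fell. With CDKN1C this gave 6 lower (20.7% against 4.71% of all genes) and 2 higher (6.9% against 2.48%) of 29.

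Of 99 gene lists, 5 had 0 called members, and 47 had a median above and 52 below 0. Together they held 4784 measured genes, of which 181 rose and 307 fell. The lists and the genes picked from them describe the data, and no test of a list was made.

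Sterol and fatty acid genes fell far more often than they rose. Cells raise these genes through the SREBP factors when sterols are short. Of the 43 genes of cholesterol and fatty acid synthesis 11 fell (25.6% against 4.71%) and 1 rose, 35 lay below 0 on average, and the median was -0.37. LSS, which closes the sterol rings, stood at -1.65 and -1.94, and HMGCS1, at the start of the mevalonate route, at -0.89 and -1.25. TM7SF2, a sterol reductase, stood at -1.15 and -0.99, and FADS2, a fatty acid desaturase, at -1.26 and -1.66. SREBF1, which encodes SREBP1, fell by 0.99 on the log2 scale. MVK, FDPS, SQLE, SCD5 and INSIG2 also fell. FASN, the fatty acid synthase, stood at -0.26 and -0.07 and was not called. STARD4, a sterol carrier, rose to 1.38 and 1.27. With Agilent's own log ratio 3 genes of cholesterol and fatty acid synthesis were called lower and the median was -0.31. Over all genes that setting called 382 lower, against 1207 in the main fit.

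The promoters of 3 of the genes that fell are shown because they hold CCAAT, the box bound by NF-Y, which is known to work beside SREBP at sterol genes. Sequences are from RefSeq (GRCh38.p14), the 250 bases before the start on the gene's strand, with the letters CCAAT or their reverse complement ATTGG in capitals.
HMGCS1, chr5:43313413-43313662, minus strand: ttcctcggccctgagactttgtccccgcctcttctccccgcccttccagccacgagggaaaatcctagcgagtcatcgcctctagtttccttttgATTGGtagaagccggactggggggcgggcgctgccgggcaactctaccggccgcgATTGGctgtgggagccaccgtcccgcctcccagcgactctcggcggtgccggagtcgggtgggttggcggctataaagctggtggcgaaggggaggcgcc
LSS, chr21:46228775-46229024, minus strand: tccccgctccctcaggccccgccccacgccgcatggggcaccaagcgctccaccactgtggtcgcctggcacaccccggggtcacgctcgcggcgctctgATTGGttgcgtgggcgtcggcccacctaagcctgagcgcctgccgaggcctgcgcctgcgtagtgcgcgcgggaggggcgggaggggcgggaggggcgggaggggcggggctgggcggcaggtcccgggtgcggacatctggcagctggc
TM7SF2, chr11:65111622-65111871, plus strand: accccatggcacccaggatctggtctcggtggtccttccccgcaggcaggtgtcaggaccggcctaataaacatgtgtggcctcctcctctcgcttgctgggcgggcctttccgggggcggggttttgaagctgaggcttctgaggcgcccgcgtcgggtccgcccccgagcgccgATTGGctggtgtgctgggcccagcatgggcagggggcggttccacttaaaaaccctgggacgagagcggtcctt

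In these windows HMGCS1 holds 2 matches and the others 1 each, all on the same strand. Over the longer stretch from 250 bases before to 50 after the start, 24 of the list's 36 promoters (66.7%) hold CCAAT on either strand. Of 13981 promoters of measured genes 36.6% do. Of the 9 called lower that have one, 6 hold it, while 40.3% of all called lower promoters and 37.4% of all called higher ones do. The list thus stands above all promoters whether or not a member fell. A match is a description and shows no binding.

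Hypoxia response genes fell in part. Of 39, 8 fell (20.5%) and 1 rose, with a median of -0.21. PLOD2, a collagen lysyl hydroxylase, stood at -2.17 and -1.98, STC2, a secreted glycoprotein, at -1.52 and -1.53, and ANGPTL4, an inhibitor of lipoprotein lipase, at -1.49 and -1.28. PFKFB4, a regulator of glycolysis, stood at -1.36 and -0.96, and P4HA2, a collagen prolyl hydroxylase, at -0.99 and -0.98. EGLN3, the oxygen sensor that marks HIF for destruction, rose to 1.94 and 1.67. VEGFA, at -0.06 and -0.32, CA9, at -0.06 and 0.16, and SLC2A1, at -0.74 and -0.65, were not called. The lactate exporter SLC16A3 and the glucose carrier SLC2A3 (-0.80 and -0.70) fell with them. Glycolysis and pentose phosphate enzymes had 2 of 33 lower (6.06%, near the 4.71% of all genes) and 0 higher. With Agilent's log ratio 3 hypoxia response genes were called lower, where 382 of all genes were, against 1207 in the main fit.

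Metallothioneins bind zinc and copper and are raised by metals through metal response elements in their promoters. MT2A fell to -1.26 and -1.36, MT1L to -1.02 and -1.10, MT1H to -0.91 and -1.09 and MT1G to -0.92 and -0.78. MT1X, at -0.68 and -1.18, and MT1E, at -0.44 and -1.03, lay below Ctrl and were not called. MT1A rose, at 0.70 and 0.86. These genes are near-identical copies, so a probe may read more than 1 of them and the value of a single member is uncertain. Zinc carriers that rose were SLC30A8 (1.66 and 1.85), SLC39A10 (0.79 and 0.88) and SLC30A1 (0.86 and 0.55), the last also a metal-induced gene. The promoter of MT2A is shown, as the member that fell most, with matches to the core of the element, TGCACNC or TGCGCNC, in capitals on either strand (RefSeq, GRCh38.p14).
MT2A, chr16:56608334-56608583, plus strand: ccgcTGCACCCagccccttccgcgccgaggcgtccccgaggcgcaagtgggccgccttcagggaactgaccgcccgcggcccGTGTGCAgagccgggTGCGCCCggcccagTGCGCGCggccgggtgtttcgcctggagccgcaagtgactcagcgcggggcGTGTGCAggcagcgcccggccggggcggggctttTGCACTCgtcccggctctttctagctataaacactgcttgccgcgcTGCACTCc

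It holds 7 matches, none overlapping another. Over 250 bases before to 50 after the start, all 4 MT1 and MT2 genes with a promoter sequence hold the letters, against 36% of all promoters. Glutathione and NRF2 target genes were split, with 4 of 54 higher (7.41% against 2.48% of all genes) and 5 lower (9.26% against 4.71%). NFE2L2, which encodes NRF2, rose (0.91 and 0.88), and the glutathione synthesis genes GCLM (-0.78 and -1.0) and GCLC (-0.47 and -0.75) fell.

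The DNA repair genes that were called all fell. Of 46 homologous recombination and Fanconi genes, 9 fell (19.6% against 4.71%), 0 rose, and 41 lay below 0 (89.1% against 47.5% of all genes), with a median of -0.31. CHEK1, the checkpoint kinase, stood at -1.08 and -1.46 and RAD54L, a recombination motor, at -1.14 and -1.35. BRIP1, a helicase partner of BRCA1, stood at -0.97 and -1.24, and FANCA, FANCD2, FANCE, RAD54B and RECQL4 fell too. In each of the genes named clone 2 was the lower or differed from clone 1 by under its standard error. BRCA1 itself, at -0.69 and -0.99 (adjusted p = 0.0866, limma), was not called. With Agilent's log ratio the median of homologous recombination and Fanconi genes was again -0.31, and 2 were called. Over all genes 572 were called there, against 1844 in the main fit. Of 59 other DNA repair genes 6 fell (10.2%), among them DDB2 (-1.25 and -0.85) and XRCC4 (-0.93 and -0.71). MKI67, the proliferation marker, stood at -0.37 and -0.70 beside these lists and was not called, and its part in them was not tested.

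Chromatin regulators were called in both directions, with more lower than higher among polycomb genes and remodelers. Of 32 polycomb genes 5 fell (15.6% against 4.71% of all genes) and 0 rose. EZH2, the methyltransferase of PRC2, stood at -0.99 and -1.37 and EED, its partner, at -0.76 and -1.01, while SUZ12, the third core subunit, stood at -0.01 and -0.13 and was not called. CBX7 and RYBP of PRC1 and PHF19 were the others, and BMI1 at -0.46 and -0.62 was not called. Of SWI/SNF and other remodelers 6 of 46 fell (13%), with EP400 at -1.07 and -1.62 and PBRM1 at -0.68 and -1.12, and SS18 rose. KDM6A, which removes the mark set by EZH2, fell too, to -1.01 and -1.10. Histone deacetylases and sirtuins went both ways, with 3 of 18 higher (16.7% against 2.48% of all genes) and 2 lower (11.1%). The deacetylase HDAC9 (5.03 and 4.32), SIRT2 (0.52 and 0.66) and SIRT6 (0.59 and 0.58) rose. For HDAC9 the brightest probe gave 4.68 on average and another 3.77, while its remaining probes gave 0.06, 0.16 and 0.11. SIRT1 (-0.89 and -1.18) and the cytoplasmic deacetylase HDAC6 (-0.77 and -0.64) fell. Of 63 nuclear pore and transport receptors 8 fell (12.7%) and SEH1L alone rose, with NUP107, a scaffold subunit, at -0.88 and -1.33 and a list median of -0.28.

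Ribosomal protein transcripts stood above Ctrl nearly throughout, but so did other very bright probes. Of 77 cytosolic ribosomal proteins 37 were called higher (48.1% against 2.48%) and 0 lower, 72 lay above 0, and the median was 0.73, at 0.67 on clone 1 and 0.77 on clone 2. RPL37A stood at 1.17 and 1.5, RPL13A at 1.13 and 1.42 and RPS28 at 1.12 and 1.18. RPL22, the lowest, stood at -0.33 on average and was not called. Many ribosomal proteins have near-identical processed copies in the genome, so single values are uncertain. Signal level moved with this result. Of the 77 genes, 68 had a mean log2 signal, over both channels, of at least 17, where only 162 other genes lay. Those 162 had a median log2 ratio of 0.48, and 42 of them (25.9%) were called higher and 0 lower. The size also depended on how the arrays were normalized. The median of the cytosolic ribosomal proteins was 0.30 with Agilent's own log ratio, with 2 called, and 1.12 with median centring, with 60 called. Over all genes 190 were called higher with Agilent's log ratio, 477 with median centring and 637 in the main fit. The part of signal level in the ribosomal protein values was not tested. Mitochondrial ribosomal proteins, which are less bright, had 1 higher and 3 lower of 77 and a median of -0.10. Those shares, 1.3% and 3.9%, compare with 2.48% and 4.71% of all genes.

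**Figure D2:**
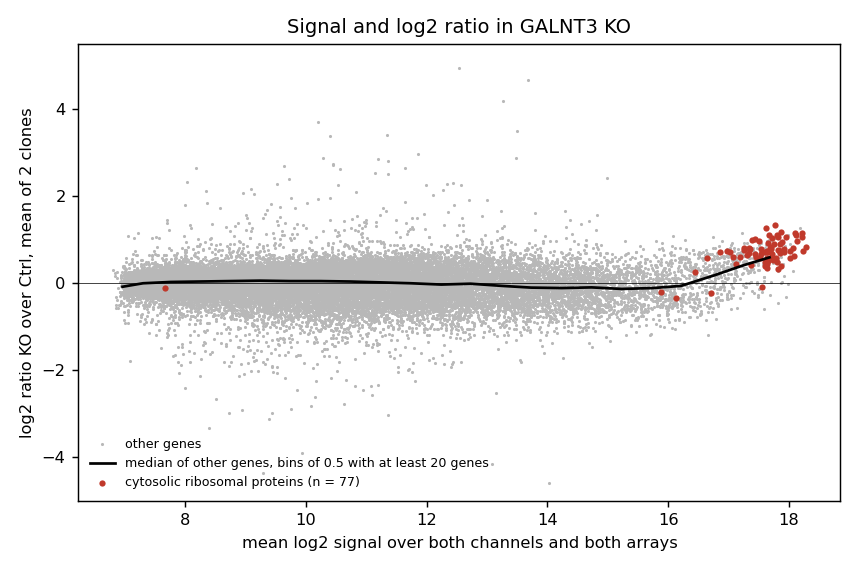
Log2 ratio over Ctrl (mean of the 2 clones) against the mean log2 signal over both channels and arrays, for 77 cytosolic ribosomal proteins (red) and all other measured genes (grey), with the median of the other genes in signal bins (line). The line runs near 0 up to a signal of about 16 and reaches 0.60 in the last bin, where most ribosomal proteins lie.

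The transcripts of replication-dependent histone genes are made in S phase and mostly lack a poly(A) tail. Of 60, 13 rose (21.7% against 2.48% of all genes) and 3 fell (5% against 4.71%). The median was 0.24. H2AC7 stood at 1.35 and 1.34, H2BC9 at 1.07 and 1.20 and H2BC17 at 0.97 and 1.11. H4C3 fell, to -1.46 and -0.92. Histone genes are near-identical copies as well. The median was 0.09 on clone 1 and 0.31 on clone 2, and 0.06 with median centring for the replication-dependent histone genes.

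Interferon-stimulated genes were called in both directions. Of 45, 7 fell (15.6% against 4.71% of all genes) and 2 rose (4.44% against 2.48%), with a median of 0.00. The ubiquitin-like modifier ISG15 stood at -1.35 and -1.01 and its protease USP18 at -1.64 and -0.79. The RNA sensor RIGI stood at -1.59 and -1.32 and the ISG15 ligase HERC5 at -0.91 and -1.0. ISG15 with its protease and its ligase were thus all lower on both clones. IFI44L and IFI44, neighbours on chromosome 1, rose to 1.42 and 1.65 and to 0.86 and 0.47. The chemokine CXCL10 also rose, to 1.08 and 1.47. PARP14 fell by 1.02 with its brightest probe, which was well above background in 1 of the 2 clones, but its value was 0.19 with the stricter filter on dim probes. Antigen presentation had 0 of 33 called. Of the TNF family, CD70, a ligand of CD27, fell to -2.41 and -2.08 and TNFRSF19 to -1.52 and -1.66. The complement gene C5 (-1.77 and -1.94) fell, as did PLAUR, the urokinase receptor (-1.31 and -1.09).

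Genes of excitable cells were called in both directions. RAB3A, a GTPase of synaptic vesicles, rose to 1.91 and 1.73 and KCNMB4, the auxiliary subunit of the KCNMA1 channel, to 1.74 and 1.56. The synaptic adhesion gene NLGN1 rose (0.87 and 1.06). Of 96 neurotransmitter receptors 6 fell (6.25%) and 2 rose (2.08%), shares near those of all genes, with CHRNA3 at -1.17 and -1.5 and HTR1F at -1.46 and -1.22 after GRIA2. Of sodium, calcium and chloride channels 4 of 75 fell (5.33%, near the 4.71% of all genes) and 0 rose, led by CLCN6 and SCN2A. Axon guidance genes had 7 of 67 lower (10.4%), among them EFNA5 at -1.20 on both clones. SEMA6A alone rose (1.49%), and the list's median was -0.01.

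By kind of gene, 2.7% of 16498 protein-coding genes were higher and 6.18% lower, against 1.36% and 3.78% of 953 lncRNA genes. Calls were rarer among dim genes. Of 5 equal groups by signal, the dimmest had 0.8% higher and 1.42% lower and the brightest 4.97% and 6.53%. The shares of all genes given beside the lists include the dim genes and 7691 unmatched names, of which 2.17% were higher and 1.73% lower. A list of bright protein-coding genes is thus set against a share lower than that of genes like its members.

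The arrays labelled GALNT3/T6 KO were read beside these values, gene by gene, as both comparisons share the Ctrl. The GALNT3 probe lay well above Ctrl on those arrays, against their label, so no direction is drawn from the label. Of the 1844 genes called in GALNT3 KO, 363 of the higher and 590 of the lower ones differed between the groups at an adjusted p of at most 0.05 and at least 1.5-fold, against 22.7% of all genes. A gene picked for lying far from Ctrl in one group is more likely to differ, and nothing is read from that count. Of the 30 ranked genes 22 differed at the adjusted threshold alone. CDH2 stood at 2.40 and 2.68 on those arrays, a difference of 0.01 (adjusted p = 0.99, limma), and PTN at -3.66 and -3.54. GALNT4 stood at -2.62 on average there, against its rise in GALNT3 KO. MT2A, at 3.08 on average, and EGR1, at -2.72, likewise lay on the other side of Ctrl from GALNT3 KO. Homologous recombination and Fanconi genes had medians of -0.31 in GALNT3 KO and -0.48 on those arrays.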

How the data were processed

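Total RNA of the KO clones (Cy5) and of the Ctrl (Cy3) was hybridised to 4 Agilent 2-colour arrays on 1 slide with 1 scan time, of which the 2 of the GALNT3 KO clones are described here. The deposited scanner files hold spot intensity values for each channel and their local background, extracted by the authors with Agilent Feature Extraction (version 10.7.3.1 per the file headers and 8.5.1.1 per the submitters' processing notes), with probe positions in hg19. The deposited value table holds log10 ratios of red over green, Agilent's own background-subtracted and dye-normalized log ratio, rounded by the authors. The direction follows from the dyes named in the labels.

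The mean and background intensities were corrected with normexp (offset 50) and normalized within each array by loess in limma 3.58.1 (R 4.3.3), with control spots at weight 0. Control spots were then left out, as were 84 to 162 outlier spots per array. Spots of a probe were averaged. The brightest probe stood for its gene, taken from those that either channel read well above background on each of the 2 arrays in a group. Of the 41000 distinct probes, 28152 were named through RefSeq by accession, 2538 by symbol and 309 by synonym, and 10001 kept the name in the file. Group means were fitted over all 4 arrays with lmFit and eBayes, and p-values were adjusted by Benjamini-Hochberg over the 27214 genes fitted. Log2 ratios are means of the 2 clones with the standard error of the fit, and the number of arrays limits their precision. The Ctrl entered as the reference channel, so its spread is not in the error. For a gene dim in 1 group a lower bound of the fold was computed from the channels after Aquantile normalization.

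The genes named were those ranked 6 to 20 by size of change among called genes in each direction, up to 6 called members per direction of each gene list, the GalNAc-Ts, and marker genes. Other genes named as not called, differing between clones or lying beside each other were chosen after their values were seen. The members and lists were chosen with earlier results of these data known. Promoters, from 250 bases before to 50 after the start, were available for 13981 measured genes. The shares of promoters with a match were counted over that whole stretch. The sequences shown, and the matches counted in them, cover the 250 bases before the start. The alternatives tried were no background correction, plain subtraction, median centring, Agilent's log ratio, the values as deposited, averaging over a gene's probes, filters on dim probes, the methods' t-test, fits of fewer arrays and the replicate number as a block. Slide as a block was not run, since there was 1 slide. The analysis was tested on simulated data. The replicate numbers of the 2 KO groups did not pair the clones (r = -0.246 between the differences of replicate 1 and 2, n = 25596 genes). Some genes are not reported here.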

Additional observations from a re-analysis of the deposited data

Results flagged for a closer look

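Of the 1844 genes called in GALNT3 KO, 991 also had an adjusted p of at most 0.05 for the difference from the arrays labelled GALNT3/T6 KO (limma), 377 of them higher and 614 lower in GALNT3 KO. Among the 30 ranked genes 6 had such a difference, the other direction from Ctrl on those arrays and at least a 2-fold distance from it there. Genes picked for lying far from Ctrl in GALNT3 KO are more likely to differ, so nothing is read from these counts. With at least 1.5-fold required as well, 363 of the higher and 590 of the lower called genes differed, against 22.7% of all genes measured. GPR84 differed by -6.11 (GALNT3/T6 KO minus GALNT3 KO, log2) and stood at -3.22 on the other arrays. FOLH1 differed by -5.16 and PLPPR5 by -3.64, both high in GALNT3 KO and below Ctrl on the other arrays. PREX1 differed by 4.19, RBMS1 by 5.59 and SLC16A3 by 6.08, all low in GALNT3 KO and above Ctrl on the other arrays.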

How the results depend on the processing

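The counts of called genes (1844, with 637 higher and 1207 lower) moved by over 1.5 times under several settings. Agilent's log ratio gave 572 called genes (190 higher, 382 lower) and the deposited values gave 566 (190 and 376). The methods' t-test gave 0 after adjustment, 0 higher and 0 lower (lowest adjusted p = 0.109), and 930 genes at their threshold, against 2608 by limma. With the replicate number as a block 80 were called, 29 higher and 51 lower, and the crossed pairing, chosen after seeing the data, gave 2357 (796 higher, 1561 lower). Leaving out 1 array gave 0 to 2723 called genes, 0 to 926 higher and 0 to 1797 lower, and the lone array was then assumed to vary like the other group. The value was 0 without either GALNT3 KO clone. Called genes that differed between the groups ranged from 326 to 1132, with 326 without clone 1 and 351 without clone 2. No background correction (1866), plain subtraction (2189), median centring (2080), the mean of all probes (1529), no filter (1836) and a stricter filter (1830) gave counts within 1.5 times. Of 429 named genes, which include the uncalled GALNT6, the status of called or not called stayed the same in 181 with Agilent's log ratio. It did so in 325 with median centring, 321 with the mean of all probes and 41 with the replicate block. With the methods' t-test it did so in 1, and 0 genes were called there. Of the 30 ranked genes, all called, Agilent's log ratio kept 29 calls, median centring 30, the mean of all probes 30, the replicate block 23 and the methods' t-test 0. PARP14 turned from -1.02 to 0.19 with the stricter filter, which read another probe. The causes were not tested.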
